A study of Mus musculus with 12 samples.

Results

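Ccl2, Ccl3, Ccl4, Ccl5, Ccl6, Ccl7, Ccl9 and Ccl12 are the 8 CC chemokine genes of mouse chromosome 11 described here, out of the 55401 genes counted. They were chosen by symbol, and all 8 passed the expression filter, a log2 CPM (counts scaled to normalized library size) above 0 in at least 2 libraries. Their mRNA was measured in Sp37A3 cells, a dendritic cell (DC) line from mouse spleen, grown with GM-CSF and M-CSF and stimulated with LPS for 24 h in every group. One line, CtrV, had been transduced with an empty CRISPR vector and expresses the inhibitory receptor Siglec-E. The other, EKO, had been transduced with a guide against Siglece. It is a pool of several single-cell clones, in which the paper reports minimal or absent Siglec-E. Each line was sequenced unpulsed and after a pulse with ovalbumin (OVA), with 3 libraries in each of the 4 groups. In the study's methods the pulse was 0.1 mg/ml OVA for 2 h and the LPS dose 0.1 µg/ml; no dose is given for the unpulsed cells. The labels do not say whether the replicates are separate cultures, so p-values measure the spread between these libraries, which may be technical.

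Chemokines are small secreted proteins that attract leukocytes through G protein-coupled receptors. In the CC family, the first cysteines of the mature protein sit next to each other. CCL2, CCL7 and CCL12 are the monocyte chemoattractants and act mainly through CCR2. CCL3 and CCL4 are the macrophage inflammatory proteins 1α and 1β, and CCL5 is also called RANTES; CCL3 and CCL5 act through CCR1, among others. CCL6 and CCL9 are rodent chemokines with a longer amino-terminal part and act through CCR1. DCs and macrophages make many of them after Toll-like receptor stimulation, and they recruit monocytes, T cells and other DCs.

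The paired cysteine codons define the family and are shown for all 8 genes, with 18 bases on each side, from the GENCODE M21 transcripts on GRCm38 (the build also called mm10), 5′ to 3′ on the coding strand. The capitals mark the 2 cysteine codons.
Ccl2 (chr11:82036488-82036529, plus strand): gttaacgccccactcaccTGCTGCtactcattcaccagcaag
Ccl7 (chr11:82046520-82046561, plus strand): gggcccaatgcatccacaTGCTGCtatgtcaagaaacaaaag
Ccl12 (chr11:82102616-82102657, plus strand): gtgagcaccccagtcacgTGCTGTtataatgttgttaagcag
Ccl3 (chr11:83648634-83648675, minus strand): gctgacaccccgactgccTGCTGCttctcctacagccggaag
Ccl4 (chr11:83663464-83663505, plus strand): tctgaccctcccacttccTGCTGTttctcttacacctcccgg
Ccl5 (chr11:83529224-83529265, minus strand): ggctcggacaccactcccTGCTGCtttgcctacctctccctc
Ccl6 (chr11:83589368-83589409, minus strand): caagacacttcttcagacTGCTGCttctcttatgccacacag
Ccl9 (chr11:83575908-83575949, minus strand): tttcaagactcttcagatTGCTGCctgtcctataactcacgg
Each of these stretches lies within 1 exon. The codon of the first cysteine is number 33 or 34 in the monocyte chemoattractants, Ccl3, Ccl4 and Ccl5, but number 50 in Ccl6 and 57 in Ccl9, which is where their longer amino-terminal part shows. Over the aligned coding bases, Ccl2 was most like Ccl7 (72.1% identity), Ccl3 most like Ccl4 (71.1%) and Ccl6 most like Ccl9 (70.7%). As a share of the longer sequence, Ccl2 was closer to Ccl9 and Ccl12 (48.6% each) than to Ccl7 (46.6%). By that measure Ccl3 was still most like Ccl4 (69.6%) and Ccl6 most like Ccl9 (65.8%). No 50-base word of the transcripts of 7 members occurred in a transcript of another gene. In Ccl9, 59 of 2996 words (1.97%) did, and the study kept 1 location for a read with several equal hits. No exon of a member overlapped an annotated exon of another gene on either strand.

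The members lie in 2 groups on chromosome 11. Ccl2 (ENSMUSG00000035385, from 82035571 to 82037453), Ccl7 (ENSMUSG00000035373, from 82045712 to 82047525) and Ccl12 (ENSMUSG00000035352, from 82101845 to 82103400) form the first and are on the plus strand. After a gap of 1422 kb come Ccl5 (ENSMUSG00000035042, from 83525778 to 83530518), Ccl9 (ENSMUSG00000019122, from 83572919 to 83578636), Ccl6 (ENSMUSG00000018927, from 83587882 to 83593087) and Ccl3 (ENSMUSG00000000982, from 83647844 to 83649355) on the minus strand, and Ccl4 (ENSMUSG00000018930, from 83662584 to 83664683) on the plus strand.

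The libraries held between 27116201 and 39698572 counts, and 3 counts, taken as the lowest level that could be seen, corresponded to between 0.0785 and 0.110 CPM (counting error only). Siglece mRNA was higher, not lower, in the libraries labelled EKO, with a log2 fold change of 0.31 with OVA (SE 0.08, adjusted p = 0.011, edgeR) and 0.41 without (SE 0.08, adjusted p = 0.0026, edgeR), and the groups did not overlap. Its mean was 155 and 156 CPM in the CtrV groups and 208 and 195 CPM in the others, unpulsed and OVA-pulsed. The libraries of the latter are therefore called EKO-labelled. Siglec-E protein was not measured in these data, so the mRNA level does not show whether the receptor was lost. The line difference passed the test for 47.0% of the 14079 tested genes with OVA and for 46.4% without it, so a single difference was not rare. All 12 DC and myeloid markers were detected, with a summed level of 24887 to 28141 CPM, and the DC factor Zbtb46 was present in every library. With OVA, 6 of them (H2-Aa, H2-Ab1, Ptprc, Irf8, Csf1r, Flt3) were higher and Itgax was lower in EKO-labelled cells. Without OVA, 6 were higher and Itgax was again lower, but the 6 were not all the same genes. Flt3 did not pass the test there (0.92, adjusted p = 0.10, edgeR), and Itgam did (0.29, adjusted p = 0.008, edgeR). No marker of T cells, B cells, NK cells, neutrophils or fibroblasts passed the filter. Of these lists, Cd3e, Cd3g, Ncr1, S100a8, S100a9, Ly6g, Col1a2, Col3a1 and Pdgfra were at 0 in all libraries, while Cd3d, Cd247, Mpo and Col1a1 reached at most 0.0523, 0.0965, 0.099 and 0.033 CPM. The sums of the 5 B cell and the 3 NK cell markers were 0.0358 to 0.282 and 0.394 to 1.24 CPM in CtrV, and 0.547 to 1.07 and 0.198 to 0.477 CPM in EKO-labelled libraries. The 5 macrophage markers were all detected, at a sum of 698 to 812 CPM in CtrV and 823 to 920 CPM in EKO-labelled libraries; 3 of them (Fcgr1, Cd68, Lyz2) were higher in EKO-labelled cells, while Adgre1 and Mertk, with log2 fold changes of -0.03 and -0.32 with OVA, did not pass the test. The part of these marker differences in the results below was not tested. Replicate 1 of the EKO-labelled cells stood apart from replicates 2 and 3, with and without OVA, and the results are also given without it. In bulk RNA, more cells of a kind and more RNA per cell cannot be told apart.

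With OVA, 7 of the 8 members were higher in EKO-labelled cells and 1, Ccl6, was lower (edgeR's quasi-likelihood test, Benjamini-Hochberg adjusted p under 0.05), where 25.1% of all tested genes were higher and 21.9% lower. Without OVA, 6 were higher and Ccl6 was again lower, where 24.5% of genes were higher and 21.9% lower. Ccl7 did not pass the test there. The median log2 fold change of the members was 1.46 with OVA and 1.40 without, against 0.00 for all tested genes in both. By their estimates, and after the values were seen, the members were sorted into 3 ranges of change. The 95% intervals overlapped between ranges, for Ccl5 and Ccl12 without OVA and for Ccl9 and Ccl12 with OVA. Ccl3, Ccl4 and Ccl5 differed by 2.92 to 3.61 on the log2 scale, Ccl12 by 1.93 and 2.02, and Ccl2, Ccl7 and Ccl9 by less than 1, as did Ccl6 in the other direction. A log2 fold change above 3, a limit chosen after the values were seen, was reached by 0.533% of tested genes with OVA and 0.490% without. Of the members, Ccl3, Ccl4 and Ccl5 passed it with OVA, and Ccl3 and Ccl4 without.

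**Figure D1:**
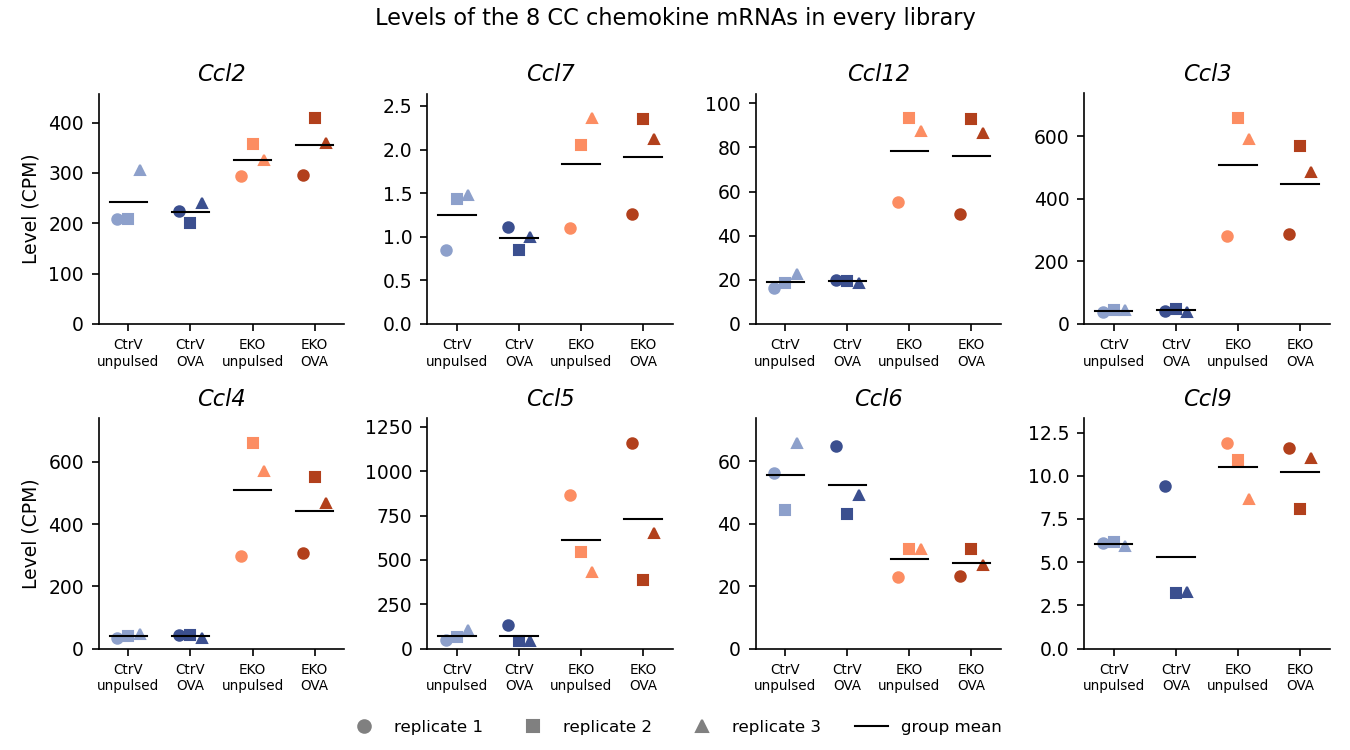
Level of each of the 8 CC chemokine mRNAs in CPM (vertical axis, linear from 0, scaled per gene) in CtrV and EKO-labelled cells, unpulsed and OVA-pulsed (horizontal axis). Points are single libraries with a symbol for each replicate number, and lines are group means. Ccl3, Ccl4, Ccl5 and Ccl12 were higher in all 6 EKO-labelled than in all 6 CtrV libraries, and Ccl6 was lower.

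The monocyte chemoattractants are described first. Ccl2, the main attractant of CCR2-bearing monocytes, stood at 209, 209 and 306 CPM (replicates 1 to 3, in this order throughout) in the unpulsed CtrV group and at 225, 201 and 240 CPM in the pulsed one. The EKO-labelled levels were 294, 357 and 325 CPM unpulsed and 295, 409 and 360 CPM pulsed. All OVA-pulsed EKO-labelled libraries were above all OVA-pulsed CtrV libraries, whereas without OVA replicate 3 of the CtrV cells was above replicate 1 of the EKO-labelled cells. Between the lines it differed by 0.67 on the log2 scale with OVA (SE 0.13, adjusted p = 0.0018, edgeR) and 0.44 without (SE 0.13, adjusted p = 0.018, edgeR). The unpulsed call was lost when replicate 1 or 2 of the unpulsed CtrV cells or replicate 2 of the unpulsed EKO-labelled cells was left out, with log2 fold changes of 0.41, 0.31 and 0.36 (adjusted p = 0.061, 0.10 and 0.085, edgeR).

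Ccl7, which encodes a monocyte chemoattractant that binds several CC receptors, was close to the limit of the filter. It had 24 to 43 counts in the CtrV and 30 to 77 counts in the EKO-labelled libraries. That is 0.846, 1.43 and 1.48 CPM in unpulsed CtrV, 1.11, 0.846 and 0.995 CPM in OVA-pulsed CtrV, 1.10, 2.05 and 2.36 CPM in unpulsed EKO-labelled and 1.26, 2.35 and 2.12 CPM in OVA-pulsed EKO-labelled cells. The groups did not overlap with OVA and overlapped without it. Its log2 fold change was 0.90 with OVA (SE 0.24, adjusted p = 0.0098, edgeR), and was 0.65, 0.76 and 0.75 (adjusted p = 0.072, 0.058 and 0.052, edgeR) when replicate 2 or 3 of the OVA-pulsed CtrV cells or replicate 2 of the OVA-pulsed EKO-labelled cells was left out. Without OVA it was 0.55 (SE 0.24, adjusted p = 0.084, edgeR), and its 95% interval ran from 0.02 to 1.08. It passed the test when replicate 1 of the OVA-pulsed CtrV cells, a library of another comparison, was left out (adjusted p = 0.015, edgeR).

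Ccl12, the rodent chemokine also called MCP-5, changed most of the first group. In CtrV cells its levels were 16.4, 18.5 and 22.5 CPM unpulsed and 20, 19.4 and 18.5 CPM pulsed. Levels in EKO-labelled cells were 55.3, 93.3 and 87.3 CPM unpulsed and 49.8, 92.7 and 86.5 CPM pulsed. The lowest EKO-labelled library was more than 2 times as high as the highest CtrV library. On the log2 scale the difference was 1.93 with OVA (SE 0.17, adjusted p = 6.3e-06, edgeR), or 3.8-fold with a 95% interval from 2.94 to 4.91. Without OVA it was 2.02 (SE 0.17, adjusted p = 5.3e-06, edgeR).

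Ccl3, whose protein attracts monocytes and T cells, was at 38.8, 43.8 and 43.6 CPM in unpulsed and 42.4, 48.6 and 39.3 CPM in OVA-pulsed CtrV cells. In EKO-labelled cells it reached 280, 658 and 591 CPM unpulsed and 287, 569 and 485 CPM pulsed. Every EKO-labelled library was more than 5 times as high as any CtrV library, and replicate 1 was the lowest in both EKO-labelled groups. The log2 fold change was 3.30 with OVA (SE 0.22, adjusted p = 7.7e-07, edgeR) and 3.53 without (SE 0.22, adjusted p = 5.7e-07, edgeR). These are 9.84-fold (95% interval 7.07 to 13.7) and 11.5-fold (8.23 to 16.1).

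Ccl4, the neighbour of Ccl3 on the opposite strand, followed it closely. Its levels were 34.9, 39.7 and 46.3 CPM in unpulsed CtrV, 43.3, 44.0 and 35.5 CPM in OVA-pulsed CtrV, 299, 661 and 572 CPM in unpulsed EKO-labelled and 307, 553 and 469 CPM in OVA-pulsed EKO-labelled cells. Again no library of a line overlapped with the other line, and replicate 1 was the lowest of the EKO-labelled cells. Without OVA the log2 fold change was 3.61 (SE 0.22, adjusted p = 5.1e-07, edgeR), and with OVA it was 10.4-fold, with a 95% interval from 7.43 to 14.5. In each of the 12 libraries, the ratio of Ccl3 to Ccl4 in CPM lay between 0.936 and 1.11, while both genes differed 9.84- to 12.2-fold between the lines.

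Ccl5, which attracts T cells, monocytes and NK cells, had the highest coefficient of variation of the members in 3 of the 4 groups. It was at 47.3, 66.5 and 107 CPM in unpulsed and 131, 43.7 and 41.2 CPM in OVA-pulsed CtrV cells. In EKO-labelled cells it reached 867, 547 and 430 CPM unpulsed and 1160, 384 and 652 CPM pulsed. The lowest EKO-labelled library was still above the highest CtrV library, by more than 2 times. That coefficient, of the CPM, was 71.2% in OVA-pulsed CtrV and 53.8% in OVA-pulsed EKO-labelled cells, against 10.8% and 32.3% for Ccl3. Without OVA the log2 fold change was 2.92 (SE 0.44, adjusted p = 3.3e-04, edgeR), or 7.57-fold with a 95% interval from 3.86 to 14.9. With OVA it was 10.4-fold, with an interval from 5.26 to 20.5.

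Ccl6 and Ccl9, the neighbouring genes of the CCR1 ligands with the long amino-terminal part, moved in opposite directions. Ccl6 was at 56.2, 44.3 and 65.8 CPM in unpulsed and 64.8, 43.1 and 49.0 CPM in OVA-pulsed CtrV cells. EKO-labelled levels were 22.8, 31.8 and 31.8 CPM unpulsed and 23.3, 31.8 and 26.8 CPM pulsed. All 6 EKO-labelled libraries were below all 6 CtrV libraries. EKO-labelled against CtrV, the log2 fold change was -0.94 with OVA (SE 0.20, adjusted p = 0.0025, edgeR) and -0.94 without (SE 0.20, adjusted p = 0.0028, edgeR), so the CtrV level was 1.92 and 1.91 times the EKO-labelled one. It kept its direction and its call under every alternative tried, with values from -1.15 to -0.67 with OVA and from -1.11 to -0.70 without.

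Ccl9 was at 6.13, 6.16 and 5.94 CPM in unpulsed and 9.38, 3.20 and 3.28 CPM in OVA-pulsed CtrV cells. In EKO-labelled cells it was at 11.9, 10.9 and 8.66 CPM without and 11.6, 8.07 and 11.0 CPM with OVA. Replicate 1 of the OVA-pulsed CtrV cells, the same library in which Ccl5 was highest for that line, was above replicate 2 of the OVA-pulsed EKO-labelled cells. The log2 fold change was 0.99 with OVA (SE 0.27, adjusted p = 0.011, edgeR) and 0.78 without (SE 0.27, adjusted p = 0.036, edgeR). With OVA it rose to 1.58 when that CtrV library was left out, and the call was lost when replicate 2 or 3 of the OVA-pulsed CtrV cells or replicate 3 of the OVA-pulsed EKO-labelled cells was left out (0.76, 0.77 and 0.80, adjusted p = 0.061, 0.057 and 0.055, edgeR). Without OVA the call was lost in 6 of the 12 fits that left out a library, those without any 1 of the 3 unpulsed CtrV libraries, replicate 2 or 3 of the unpulsed EKO-labelled cells or replicate 2 of the OVA-pulsed ones, with values between 0.57 and 0.91. It was also lost without the replicate number as a block (0.78, adjusted p = 0.087, edgeR).

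**Figure D2:**
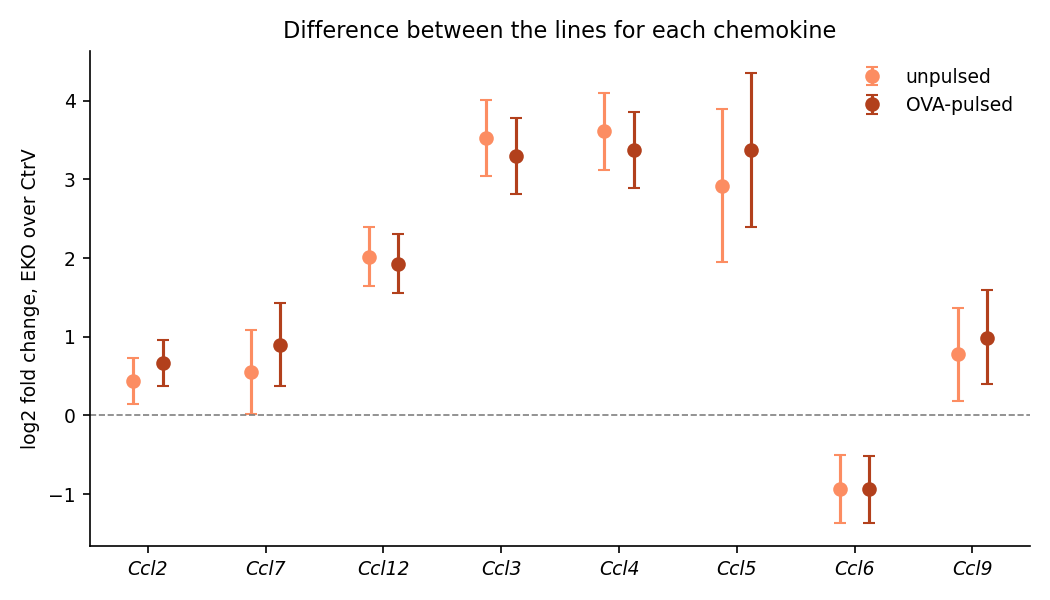
Log2 fold change of each CC chemokine between EKO-labelled and CtrV cells (vertical axis) in unpulsed and OVA-pulsed cells, from edgeR's fit of all 12 libraries, with 95% confidence intervals as bars. Ccl6 lies below 0 with both treatments, and for every gene the intervals of the 2 treatments overlap.

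The groups did not overlap, with EKO-labelled cells higher, for 6 of the 8 members with OVA and 5 without, where this was so for 27.0% and 24.1% of all tested genes. They did not overlap in the other direction for 1 member (Ccl6) in both, where the share of all genes was 25.9% and 22.9%. Over all libraries, 4 members (Ccl3, Ccl4, Ccl5 and Ccl12) were higher in every one of the 6 EKO-labelled than in every CtrV library, and Ccl6 was lower. For all tested genes these shares were 18.9% and 16.6%.

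No change of a member with the OVA pulse itself passed the test. In neither line did a member pass the test between OVA-pulsed and unpulsed cells. No tested gene did (0.00% in each line), and DESeq2 also called none. An unadjusted p under 0.05 in edgeR was reached by 231 genes (1.64%) in CtrV and 394 (2.80%) in EKO-labelled cells. Both shares were smaller than evenly spread p-values would give, so the test may have been conservative and could miss small changes. For every member the pulsed and unpulsed libraries of a line overlapped when replicate numbers were ignored. Of all tested genes, 1.98% were higher and 2.39% lower without overlap in CtrV, and 2.34% and 2.56% in EKO-labelled cells. Matched by replicate number in EKO-labelled cells, Ccl2 was higher with OVA in all 3 replicates and Ccl12 in 0 of 3. Every other member went both ways there, as did all members in CtrV cells. These matched directions were not tested. The intervals show which changes remain possible. In CtrV cells the 95% interval of the log2 difference between OVA-pulsed and unpulsed cells was -0.40 to 0.51 for Ccl3, -0.40 to 0.19 for Ccl2 and -0.35 to 0.43 for Ccl12. It was widest for Ccl5, from -1.22 to 0.66. In EKO-labelled cells it was -0.60 to 0.26 for Ccl3, -0.17 to 0.41 for Ccl2, -0.40 to 0.29 for Ccl12 and -0.72 to 1.06 for Ccl5. For Ccl5, changes of about 2-fold lay within these intervals.

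The difference between the lines was tested for dependence on the pulse by the interaction term. No member and no other gene passed the test in edgeR or DESeq2 (0.00% of genes). An unadjusted p under 0.05 in edgeR was reached by 269 genes (1.91%), again fewer than evenly spread p-values would give. The estimates for the members ran from -0.23 for Ccl3 (95% interval -0.85 to 0.40) and -0.23 for Ccl4 (-0.86 to 0.40) to 0.45 for Ccl5 (-0.84 to 1.75) on the log2 scale. They were not stable to leaving out 1 library. The Ccl5 term was 1.00 without replicate 1 and -0.02 without replicate 3 of the unpulsed CtrV cells, and the Ccl3 and Ccl4 terms were 0.04 and 0.09 without replicate 1 of the OVA-pulsed CtrV cells. That Ccl7 passed the test with OVA only was therefore not shown to depend on OVA. Its interaction term was 0.35, with an interval from -0.40 to 1.10.

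To compare levels between genes, CPM were divided by the length of each gene's combined exons, from 537 bases in Ccl12 to 3045 in Ccl9, which gives CPM per kb. In CtrV cells Ccl2 was the most abundant member, at 212 ± 49 CPM per kb (SD, n = 3) without and 195 ± 17.5 with OVA. It was followed by Ccl5 (76.8 ± 32 without OVA), Ccl4 (61.1 ± 8.73) and Ccl3 (54.9 ± 3.65), whose libraries overlapped from each gene to the next. Then came Ccl12 (35.6 ± 5.78) and Ccl6 (30.9 ± 6), which also overlapped. Ccl9 and Ccl7 were far below, at 2 ± 0.0387 and 1.56 ± 0.44 CPM per kb. With OVA, the order in CtrV cells was the same.

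In EKO-labelled cells 3 members stood above Ccl2. Without OVA, Ccl4 was at 773 ± 286, Ccl3 at 665 ± 263 and Ccl5 at 640 ± 236 CPM per kb (SD, n = 3), with overlapping libraries, and Ccl2 at 286 ± 27.6. With OVA, Ccl5 came first (763 ± 411), before Ccl4 (671 ± 190) and Ccl3 (584 ± 189), again overlapping, and Ccl2 was at 312 ± 50.3. Ccl12 (146 ± 38 without OVA) was next and Ccl6 (16.1 ± 2.89) followed. Ccl9 and Ccl7 were again last and overlapped.

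The pool of these mRNAs therefore differed in size and in make-up. The summed level of the 8 members was 401 to 590 CPM per kb in the CtrV libraries and 2101 to 2941 CPM per kb in the EKO-labelled ones. They held 0.0416% to 0.0611% of all counts in the former and 0.180% to 0.230% in the latter. Ccl2 made up 37.0% to 49.9% of the sum in CtrV libraries and 10.7% to 14.2% in EKO-labelled ones. The shares of Ccl3 and Ccl4 were 9.64% to 15.3% and 11.9% to 16.1% in CtrV, and 15.5% to 30.2% and 19.2% to 34% in EKO-labelled libraries. The share of Ccl5 overlapped between the lines, at 10.2% to 25.7% in CtrV and 15.8% to 50% in EKO-labelled libraries. The share of Ccl6 was at least 5.70% in CtrV and at most 0.699% in EKO-labelled libraries.

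**Figure D3:**
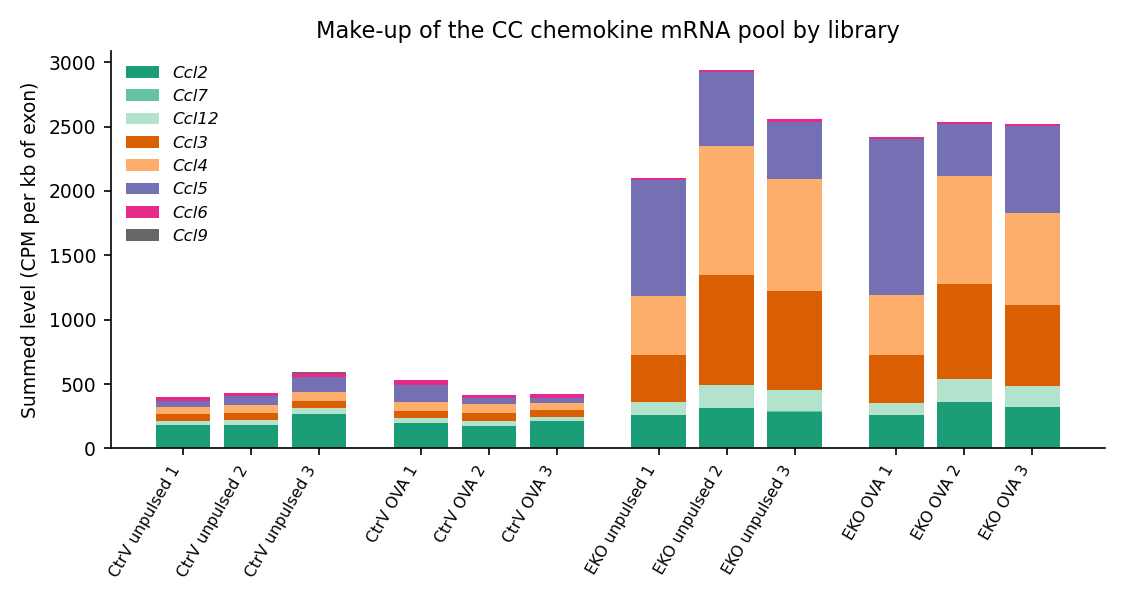
Summed level of the 8 CC chemokine mRNAs in each of the 12 libraries, in CPM per kb of exon (vertical axis from 0), stacked by gene. The 6 CtrV bars reach 401 to 590 with Ccl2 as the largest part, and the 6 EKO-labelled bars reach 2101 to 2941 with Ccl3, Ccl4 and Ccl5 as the largest parts.

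Replicate 1 of the EKO-labelled cells stood apart from replicates 2 and 3 in the members, without and with OVA. Ccl3 was at 0.448 and 0.546 times the mean of the other 2 replicates, Ccl4 at 0.485 and 0.601, Ccl7 at 0.5 and 0.562, and Ccl12 at 0.612 and 0.555 times. Ccl2 and Ccl6 were lower by less, at 0.767 to 0.862 and 0.718 to 0.794 times. Ccl5 went the other way, at 1.78 times the mean of the others without OVA and 2.24 times with it, and Ccl9 at 1.22 and 1.21 times. In both treatments, 6 members were thus lowest and 2 highest in replicate 1. Of all tested genes, 25.6% were lowest and 26.9% highest there in both treatments, so a gene apart in this replicate was common. These libraries share a replicate number, and whether they share a culture is not stated.

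**Figure D4:**
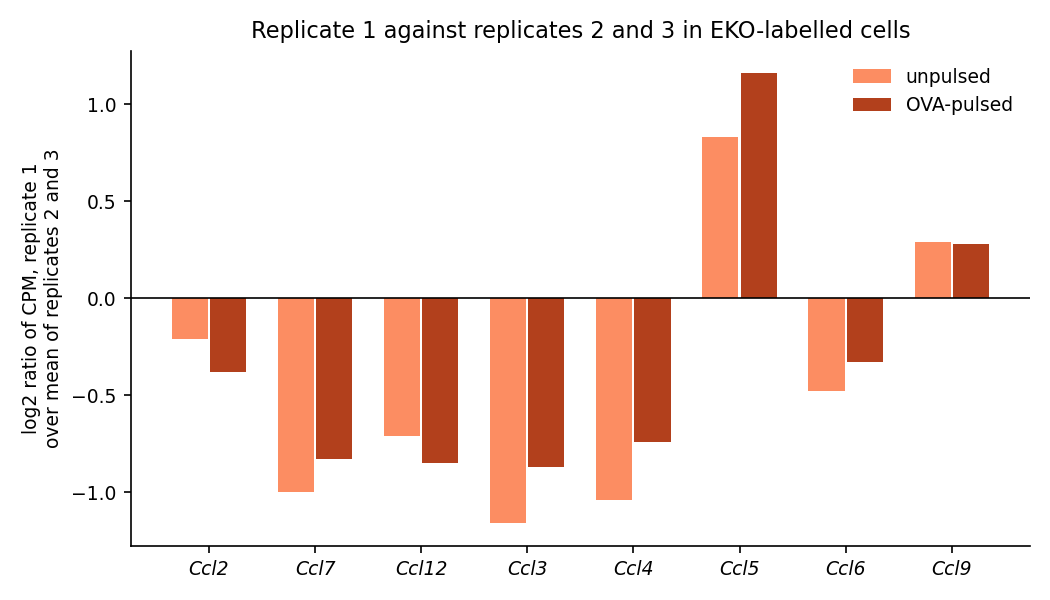
Log2 ratio of the CPM of replicate 1 to the mean of replicates 2 and 3 (vertical axis) in EKO-labelled cells for each CC chemokine, without and with OVA. Bars above 0 mean that replicate 1 was higher. Ccl5 and Ccl9 lie above 0 and the other 6 genes below, in both treatments.

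Without both of these libraries the line differences remained, and all 8 members passed the test with and without OVA, 7 higher and 1 lower. In the same fits, 22.7% of 13997 tested genes were higher and 20.0% lower with OVA, and 22.8% and 21.5% without. The log2 fold change with OVA was then 3.57 for Ccl3, 3.61 for Ccl4, 3.11 for Ccl5, 2.18 for Ccl12 and -0.72 for Ccl6. It was 0.76 for Ccl2, 1.10 for Ccl7 and 1.21 for Ccl9, so Ccl7 and Ccl9 were no longer below 1. Ccl7 without OVA was at 0.75 (adjusted p = 0.028, edgeR).

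CC chemokines outside the 8 were mostly silent in these cells. Of 13 other CC ligands, 4 were tested. With and without OVA, 2 were higher in EKO-labelled cells and none lower (median log2 fold change 0.69 in both). For all tested genes the shares were 25.1% higher and 21.9% lower with OVA, and 24.5% and 21.9% without. Ccl22, a ligand of CCR4 made by mature DCs, was at 458 CPM in OVA-pulsed CtrV and 2192 CPM in OVA-pulsed EKO-labelled cells (log2 fold change 2.27, SE 0.47, adjusted p = 0.0024, edgeR) and was also highest in replicate 1. Ccl1, a ligand of CCR8 located between the 2 groups of members, had a log2 fold change of 0.93 with OVA (SE 0.25, adjusted p = 0.010, edgeR). Ccl17, which shares its receptor with Ccl22, did not pass the test (0.45, SE 0.21, adjusted p = 0.10, edgeR). Ccl8 and Ccl11, the other annotated CC ligands of the first group on chromosome 11, were at 0 or at most 0.0332 CPM. That is under the level of 3 counts, so neither was detectable at this depth.

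Of 15 CC receptors and related receptors, 7 were tested. With OVA, 5 of them were higher in the EKO-labelled line and none was lower (median log2 fold change 1.04). Without OVA, 4 were higher and none lower (median 0.72). Of all tested genes, 25.1% were higher and 21.9% lower with OVA, and 24.5% and 21.9% without. Ccr1, the receptor of CCL3, CCL5, CCL6 and CCL9, was at 407 CPM in OVA-pulsed CtrV and 482 CPM in OVA-pulsed EKO-labelled cells (log2 fold change 0.23, SE 0.08, adjusted p = 0.039, edgeR). Ccr2, the receptor of the monocyte chemoattractants, and Ccr3 were below the filter, at most 0.324 and 0.153 CPM in any library. Ccr4, the receptor of CCL17 and CCL22, was at 0.115 CPM, near the level of 3 counts, in OVA-pulsed CtrV and at 1.42 CPM in OVA-pulsed EKO-labelled cells (log2 fold change 3.55, SE 0.47, adjusted p = 1.3e-04, edgeR). Ccr7, which guides mature DCs to lymph nodes, was at 94.7 and 356 CPM with OVA (log2 fold change 1.96, SE 0.52, adjusted p = 0.010, edgeR) and had a log2 fold change of 0.72 without OVA (SE 0.52, adjusted p = 0.29, edgeR).

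Genes of LPS signalling and of chemokine mRNA turnover were read from a list of 42, of which 40 were tested. With OVA, 30 had a higher and 3 a lower level in the EKO-labelled line (median log2 fold change 0.66). Without OVA, 26 and 3 did (median 0.63). Among all tested genes, 25.1% were higher and 21.9% lower with OVA, and 24.5% and 21.9% without. The LPS receptor genes Tlr4, Ly96 and Cd14 were higher, with log2 fold changes of 1.43, 1.17 and 1.92 with OVA. Of the adaptors, Ticam2 had a log2 fold change of 2.26 and Myd88 one of 0.17. The 3 lower genes were Irak1, Irak4 and Jun, at -0.20, -0.48 and -0.18. Among NF-κB genes, Nfkb1 (0.83) and Rel (1.09) were higher, and so were the inhibitors Nfkbia (1.18) and Tnfaip3 (1.21) and the regulator Nfkbiz (2.24). Of the interferon regulatory factors, Irf7 (2.28) and Irf8 (1.35, also a marker on the DC list) were higher, while Irf3 (-0.04, adjusted p = 0.61, edgeR) and Irf5 (-0.09, adjusted p = 0.18, edgeR) did not pass the test. Zfp36, Zfp36l1 and Zc3h12a, whose proteins promote the decay of cytokine and chemokine mRNAs, were higher as well (0.74, 0.58 and 1.18), and Elavl1, whose protein stabilizes such mRNAs, did not pass the test (0.07, adjusted p = 0.35, edgeR).

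Genes near the members were examined to see how far the difference extended along the chromosome. The stretch from 250000 bases before Ccl2 to 250000 bases after Ccl4 holds 87 annotated genes, of which 33 were tested, 8 members and 25 neighbours. With OVA, 16 neighbours were higher and 1 was lower, with a median log2 fold change of 0.36. Without OVA, 16 were higher and none lower, with a median of 0.59. The shares over all tested genes were 25.1% higher and 21.9% lower with OVA, and 24.5% and 21.9% without. Among the neighbours with the smallest p were Wfdc17 (log2 fold change 2.38, SE 0.15, adjusted p = 6.0e-07, edgeR), Slfn1 (3.09, SE 0.26, adjusted p = 5.7e-06, edgeR) and Heatr9. Heatr9 lies next to Ccl5 and was at 0.564 and 3.76 CPM in OVA-pulsed CtrV and EKO-labelled cells (adjusted p = 4.4e-05, edgeR). Wfdc17 is the next tested gene after Ccl4 and was at 3.30 and 17.2 CPM. Slfn1 is one of the Schlafen genes that fill part of the gap between the 2 groups and was at 0.382 and 3.35 CPM. The CtrV levels of Slfn1 and Heatr9 were thus below the limit of the filter. Ccl6 and Ccl9, 9.24 kb apart, differed in direction, so the direction was not shared along the second group.

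**Figure D5:**
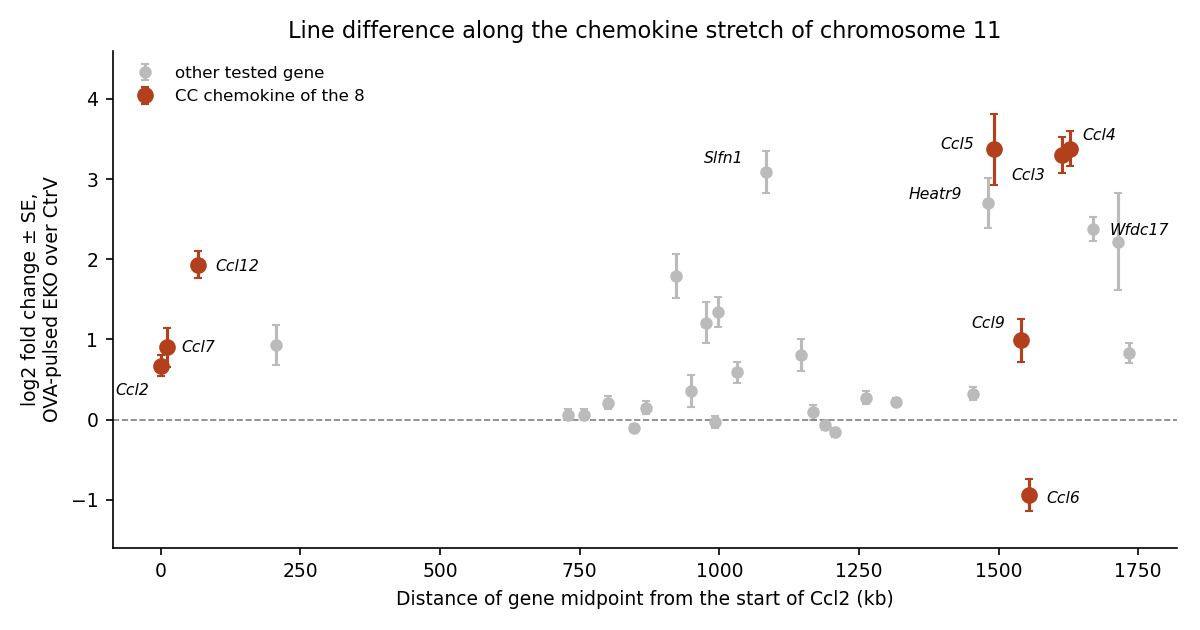
Line difference with OVA, EKO-labelled against CtrV, as log2 fold change with its SE (vertical axis) for the 8 CC chemokines and other tested genes of the stretch, by the distance of the gene's midpoint from the start of Ccl2 in kb (horizontal axis). Not all of the 25 are drawn. Ccl6 lies at -0.94 between Ccl9 at 0.99 and Ccl3 at 3.30, and many genes between the 2 groups of chemokines lie near 0.

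Promoter sequence was at hand for 4 of the 8 members, Ccl3, Ccl6, Ccl9 and Ccl12 (RefSeq, GRCm38.p6). Shown are the 150 bases before the RefSeq start of each gene, 5′ to 3′ on the strand of the gene. They cover the gene of this set with the largest change, the one with an intermediate change, and the neighbouring pair that moved in opposite directions. For Ccl3 the RefSeq start lies upstream of the GENCODE start given above, and its positions below refer to the RefSeq start. The capitals mark matches to the motifs named below.
Ccl3 (chr11:83649379-83649528, minus strand): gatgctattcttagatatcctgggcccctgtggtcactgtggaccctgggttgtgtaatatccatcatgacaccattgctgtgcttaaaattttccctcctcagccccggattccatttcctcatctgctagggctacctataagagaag
Ccl12 (chr11:82101695-82101844, plus strand): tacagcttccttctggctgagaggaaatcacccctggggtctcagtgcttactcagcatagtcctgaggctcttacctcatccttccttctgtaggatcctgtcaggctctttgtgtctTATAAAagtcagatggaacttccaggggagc
Ccl9 (chr11:83578637-83578786, minus strand): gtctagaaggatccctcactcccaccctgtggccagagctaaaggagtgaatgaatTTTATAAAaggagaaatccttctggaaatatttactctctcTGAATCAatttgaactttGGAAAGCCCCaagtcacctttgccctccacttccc
Ccl6 (chr11:83593088-83593237, minus strand): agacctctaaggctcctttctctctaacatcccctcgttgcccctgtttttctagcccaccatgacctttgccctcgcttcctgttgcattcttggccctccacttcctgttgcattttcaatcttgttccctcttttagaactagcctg
In the 250 bases before the start, both strands were searched for TATAAA, for TGANTCA (the core of AP-1 sites), for GAAA followed by any 2 bases and GAAA (the core of interferon-stimulated response elements), for TT, any 2 bases, G, any base and AA (the core of C/EBP sites, not capitalized) and for the κB consensus. Ccl12 held TATAAA, from 31 to 26 bases before the start. Ccl9 held a κB match from 35 to 26 bases before the start on the opposite strand, which overlaps a C/EBP core match from 38 to 31, and TGANTCA from 53 to 47 bases. It also held TATAAA from 92 to 87 bases, overlapping one on the other strand from 94 to 89, another on that strand from 224 to 219, and a C/EBP core match from 75 to 68. Ccl3 held only a C/EBP core match, from 100 to 93 bases, and Ccl6 held none of the 5 motifs. Among 32536 promoters of the same length, 3.92% held the κB consensus, 2.98% the interferon response core, 36.8% the C/EBP core, 6.73% TGANTCA and 12.3% TATAAA. A match is a run of letters and says nothing of a factor bound there, and no match says only that these letters are not in this window.

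For each member, the genes whose pattern over the 12 libraries was most like it were sought by Pearson's r of log2 CPM, with the mean of each line subtracted, as a description of libraries that share replicate numbers. Ccl3 and Ccl4 were each other's closest gene among all 14079 (r = 0.97, n = 12 libraries). They were so without the subtraction too (r = 0.999, n = 12 libraries), a value that includes the line difference. With each group's mean subtracted, their r was 1.00 in EKO-labelled but 0.78 in CtrV cells (n = 6 libraries each). In CtrV cells Ccl4 was then closer to Ccl12 (r = 0.88). In EKO-labelled cells the high value was not particular to the pair. Ccl3 had r = 0.97 there with each of Ccl6, Ccl7 and Ccl12, and 0.89 with Ccl2. With Ccl5 and Ccl9 it had -0.88 and -0.69. Replicate 1 stood apart for all of these genes in both treatments, and its part in these values was not tested. With line means subtracted, the closest gene of each other member was no CC chemokine. It was Lad1 for Ccl5 (r = 0.99), Tmco3 for Ccl12 (r = 0.96), Gm6542 for Ccl2 (r = 0.97), Gtpbp8 for Ccl7 (r = 0.95), Gm4462 for Ccl6 (r = 0.93) and Cdkn2b for Ccl9 (r = 0.90).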

How the data were processed

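Count data of 12 libraries in 4 groups, assigned from the sample labels, were used. The deposited values are the authors' raw counts, 1 per gene and library. According to the methods and the submitters' processing notes, stranded mRNA libraries were aligned to mm10 with STAR, and 5′ ends of reads on exons were counted with featureCounts and an Ensembl gene model; whether strand was used is not given in the sources used here. Of 55401 rows, 55141 were matched to GENCODE M21, which supplied names, positions and exon lengths.

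The 14079 genes that passed the study's own filter (log2 CPM over 0, 2 or more libraries) were tested with edgeR 4.0.16 in R 4.3.3 (TMM, quasi-likelihood fit of group and replicate number over all 12 libraries, Benjamini-Hochberg adjustment over all tested genes, adjusted p under 0.05). Replicate numbers come from the labels, and the study fitted them as a covariate. Deviations of same-numbered libraries of the 2 lines correlated at 0.450, 0.295 and 0.298 with OVA, and at 0.066, -0.009 and 0.271 without. Between OVA-pulsed and unpulsed libraries they correlated at 0.711, 0.357 and 0.424 in EKO-labelled and 0.089, 0.185 and 0.385 in CtrV cells. The fit gave both lines the same replicate effect, so a replicate shift in a single line stayed in the residual spread. Replicates differed by more than sampling noise (chi-square per degree of freedom 4.85 to 45.3). The fit was also run on simulated counts, which were drawn without any replicate effect. That run cannot show how the fit handles the replicate differences seen here.

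The members and lists were chosen with earlier results of these data known. Always named were the members, Siglece, any gene of the lists beside its list's counts, the 4 neighbours with the smallest p with OVA, and the genes most like each member; some of these are counted but not reported here by name. Alternatives were RLE normalization, DESeq2 1.42.0, a bias-adjusted quasi-likelihood fit, no expression filter, at least 10 counts in every library, no replicate block, the compared libraries alone, leaving out single libraries or both replicate 1 EKO-labelled libraries, and, added after the data were seen, TMM factors taken before the filter. Coding sequences were aligned with Biopython 1.88.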

Additional observations from a re-analysis of the deposited data

How the results depend on the processing

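Over 21 alternatives to each line difference, no member reversed its direction. Ccl3, Ccl4, Ccl5, Ccl6 and Ccl12 passed the test under each of them with and without OVA, and Ccl2 did so with OVA. Of the member values recomputed for all 5 contrasts, 814 stayed on their side of the threshold, 16 lost and 2 gained a call, and those are named with their libraries in the account of Ccl2, Ccl7 and Ccl9. The count of members called lay between 6 and 8 with OVA and between 5 and 8 without when single libraries were left out, and between 5171 and 6993 and between 5364 and 6476 for all genes; where this left 2 libraries in a group, the spread was pooled over all groups. Without the replicate block, 8 members were called with OVA and 6 without, and 5413 and 5337 genes in all. The block changed no call of a member but that of Ccl9 without OVA. Ordering the members by CPM without gene length moved 3 positions in unpulsed CtrV, 3 in OVA-pulsed CtrV, 3 in unpulsed EKO-labelled and 2 in OVA-pulsed EKO-labelled cells, since the lengths differ. The median of all genes moved by less than 0.1 on the log2 scale between scalings. With 3 libraries a group, the small differences of Ccl7 and Ccl9, and that of Ccl2 without OVA, were near the limit. Ccl7 rests on 24 to 77 counts a library.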
